A study of Mus musculus with 7 samples.

Results

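Retinol binding, retinoic acid synthesis and retinoic acid receptor genes were followed in cultured mouse mammary glands. The set held 9 genes out of the 13971 that could be named on the arrays. They were the transport genes Rbp4 and Stra6, the synthesis genes Aldh1a1, Aldh1a2 and Aldh1a3, the cellular binding proteins Crabp1 and Crabp2, and the receptors Rarb and Rarg. The genes were chosen by function, with earlier results of these data known. They were found on the array through the RefSeq accession of their probes, and all 9 were matched, each by 1 probe.

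For C57 wild-type and estrogen receptor knockout mice, the study describes glands as thoracic pairs of 4-week-old females, kept in serum-free organ culture. Culture began with a 10-day growth phase in insulin, prolactin, aldosterone and hydrocortisone, and in the 24-day cultures a 14-day regression phase in insulin alone followed. Before culture the mice had received hormones, which the study describes in 2 ways: estrogen (1 µg) with progesterone (1 mg) for 9 days, or EGF (25 ng) with progesterone (1 mg) for 5 days. The lesion experiment used both, and EGF with progesterone is the pretreatment named for the pooled wild-type and knockout glands put on arrays. The polycyclic aromatic carcinogen dimethylbenz(a)anthracene (DMBA) was given at 2 µg/ml on day 3 for 24 h.

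Each of 7 groups was measured on 1 array. The C57 wild type (WT) gave 3 arrays: 10 days of culture without DMBA, 24 days without DMBA, and 24 days with DMBA. BALB/c wild-type glands gave 2 arrays at 24 days, without and with vitamin D5. Neither the dose of vitamin D5 nor any use of DMBA is given for them. The study does not name BALB/c mice, so their age, sex, pretreatment and culture phases were taken to be those above. The mice lacking estrogen receptor α (αERKO) and those lacking estrogen receptor β (βERKO) gave 1 array each at 24 days. The titles name DMBA for the WT array only, and the study's methods describe the same DMBA exposure for both knockouts. RNA of 5 mice was pooled for the WT with DMBA, αERKO and βERKO arrays. The knockout lines came from a C57BL6/129SV background and the WT mice were C57, so genotype and background cannot be told apart. The methods also state that αERKO glands had no alveolar lesions, the preneoplastic lesions that DMBA gives in such cultures, whereas WT and βERKO glands with lesions were taken. They add that αERKO glands therefore gave nothing for molecular work on lesions. The study's discussion describes the αERKO RNA as taken from glands without lesions. The αERKO array is thus set against WT and βERKO arrays of glands with lesions, so genotype and lesions cannot be told apart. With 1 array per group there was no replicate spread, and none of the differences below could be tested.

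Retinoids are derivatives of vitamin A. Retinol travels in blood on RBP4, which adipocytes and hepatocytes secrete, and enters cells through STRA6. Alcohol and retinol dehydrogenases turn it into retinal, and the retinaldehyde dehydrogenases of the ALDH1A family turn retinal into retinoic acid. Inside the cell retinoic acid is carried by CRABP2, which hands it to nuclear receptors, and by CRABP1, which is linked to its storage and breakdown. The receptors RARA, RARB and RARG bind DNA with a retinoid X receptor partner, and the Rarb gene is itself a classical target, switched on through a direct repeat in its promoter. In mammary tissue, retinoids are known for holding back epithelial growth, and ALDH1A enzymes are known as markers of progenitor cells.

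The Rarb promoter is shown because it carries the only match of the 4 hormone response motifs searched. The motifs were DR1, DR2 and DR5, which are direct repeats of a 6-base receptor half-site with 1, 2 or 5 bases between the copies, and the estrogen response element, which is GGTCA and TGACC with 3 bases of any kind between them. Both strands were searched from 250 bases before to 50 bases after each start in a RefSeq-based table (GRCm38.p6), which held 13 promoters of 7 of the genes. Aldh1a3 and Crabp2 had no entry. The bases before the Rarb start, chr14:16575477-16575726 on the minus strand, are printed 5′ to 3′ with both half-sites of the DR5 match in capitals.
Rarb: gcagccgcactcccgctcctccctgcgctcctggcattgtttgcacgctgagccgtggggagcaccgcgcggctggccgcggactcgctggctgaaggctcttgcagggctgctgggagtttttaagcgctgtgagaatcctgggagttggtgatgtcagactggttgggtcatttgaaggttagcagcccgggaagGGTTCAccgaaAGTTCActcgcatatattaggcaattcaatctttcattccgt
The match is 17 bases long, lies at chr14:16575513-16575529 and runs from base -53 to base -37 before the start. Of 32851 promoters of this length in the table, 32 (0.0974%) held a DR5 match, 73 (0.222%) a DR1 match, 88 (0.268%) a DR2 match and 23 (0.0700%) the estrogen response element. A match is a description of the letters in this window, and nothing was measured on binding here.

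All levels below are log2 of the spot intensity over the median gene probe of the same array, so that 0 is the brightness of the median probe. Levels of different probes are not set against each other. The scanner software flagged a spot as good, as near background or with another mark such as irregular shape. Spots with another mark were handled as those near background, and marker sums took every spot. On an array 68.4% to 74.2% of 34967 gene probes were good. Where 1 of 2 arrays was near background, the fold is given as a bound ("at least"), computed against the lowest good value of the dim array or the dim probe's own value, whichever was higher. As a measure of technical spread, an SD was computed from the log2 ratios of 526 to 553 pairs of probes for the same transcript. It was the root mean square difference within pairs divided by the square root of 2, so the spread of 1 probe's ratio. This value, called the SD between probe pairs below, was 0.23 to 0.59, depending on the comparison. This SD covers differences between probes on the same arrays and not those between animals.

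The targeted genes were read first. The Esr1 probe (GE42492) was good on the WT array with DMBA (-1.02) and on BALB/c with vitamin D5 (-0.74), and near background on the other 5, the αERKO array among them. The Esr2 probe (GE1577274) was good on the WT 24-day array (-0.55) and brightest on the array of βERKO glands (0.87), which goes against that label unless the probe lies outside the disrupted stretch of the gene. Where the probe lies relative to it is not given in the sources used here. That array is therefore called the array labelled βERKO throughout, and directions drawn from it carry this reservation.

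Whole glands were measured, so fewer cells of a type and less RNA per cell cannot be told apart. The marker lists of other cell types moved strongly between the arrays, and their values are given here as sums of normalised intensity. The 12 adipocyte markers on the array ranged from 334.4 (BALB/c with vitamin D5) to 3732.4 (αERKO), and the 10 fibroblast markers from 24.4 (WT 10 days) to 563.4 (αERKO). Basal epithelium ran from 145.1 (αERKO) to 863.1 (BALB/c with vitamin D5), luminal epithelium from 602.3 (αERKO) to 1493.2 (WT 24 days) and squamous epithelium from 11.4 (WT with DMBA) to 224.7 (array labelled βERKO). Macrophage markers spanned 123.6 to 574.3, endothelial markers 4.4 to 56.9 and lymphocyte markers 13.4 to 77.9. The skeletal muscle markers summed to 2488.3 for αERKO, 53.1 for the array labelled βERKO and at most 12.7 on the WT arrays. The epithelial keratins Krt5, Krt8 and Krt18 that define mammary epithelium were read on all 7 arrays.

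**Figure D1:**
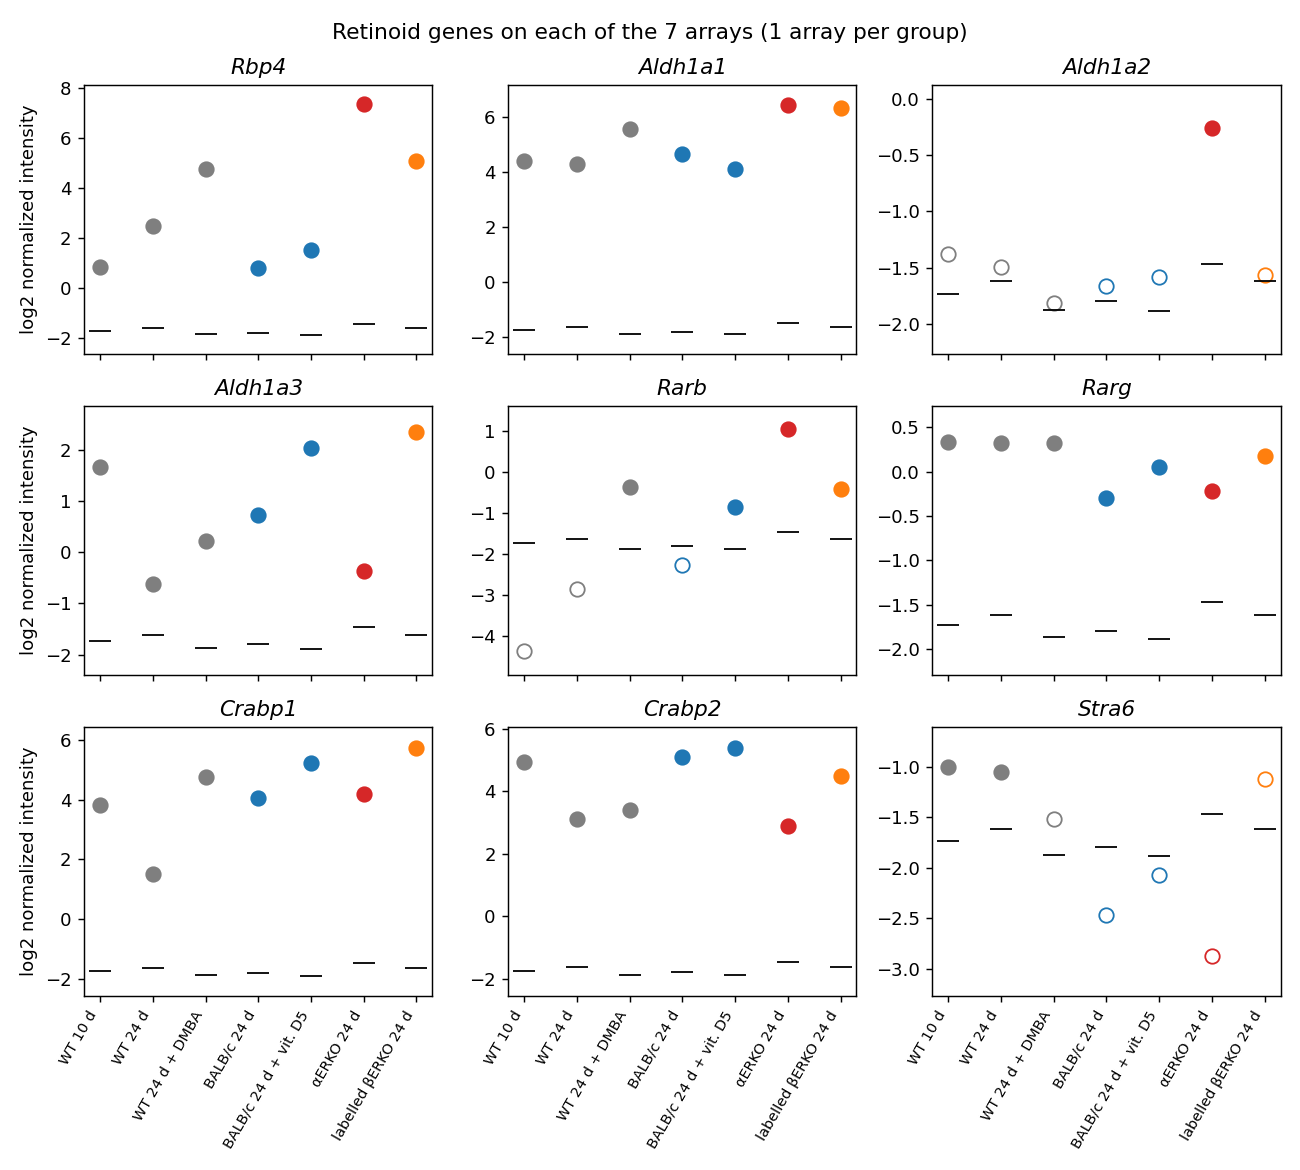
Log2 normalised intensity of each of the 9 retinoid genes (y axis, own scale per panel) on the 7 arrays (x axis, 1 array per group, so no error bars). Filled points are spots flagged good, open points spots near background, and the short black lines the lowest good value of that array. Rbp4 runs from 0.79 to 7.37, whereas Rarg stays between -0.30 and 0.33.

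Rbp4 (GE38586), the serum carrier of retinol, varied more than any other member read as good on all 7 arrays. Its level was 0.82 on the WT 10-day array, 2.47 on the WT 24-day array and 4.76 on the WT array with DMBA, 0.79 on the BALB/c array and 1.5 with vitamin D5, 7.37 on the αERKO array and 5.07 on the array labelled βERKO. The αERKO array was thus the brightest, the array labelled βERKO came next, and BALB/c and WT 10-day glands were the dimmest. The whole span was 95.9-fold (6.58 on the log2 scale), the 43rd largest among 9338 genes good on all 7 arrays, whose median span was 1.05 with a 90th percentile of 2.56. Among the 5 wild-type arrays alone it spanned 3.97. The gap from the array labelled βERKO down to WT with DMBA (0.30) was smaller than the SD between probe pairs of that comparison (0.37), and BALB/c and WT 10-day glands were apart by less than the smallest such SD.

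Stra6 (GE33741), the membrane receptor through which retinol enters cells, was close to background throughout. It was read as good at -1.0 on the WT 10-day array and -1.06 on the WT 24-day array. Its spots on the other 5 arrays were near background, with values of -1.52 (WT with DMBA), -2.47 (BALB/c), -2.08 (BALB/c with vitamin D5), -2.88 (αERKO) and -1.13 (array labelled βERKO). The dim values have no order that can be read, and that of the array labelled βERKO lay close to the good value of the WT 24-day array.

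Aldh1a1 (GE36543), a retinaldehyde dehydrogenase that makes retinoic acid, was bright on every array. Its level was 4.41 on the WT 10-day array, 4.30 on the WT 24-day array, 5.58 on the WT array with DMBA, 4.65 on the BALB/c array, 4.10 with vitamin D5, 6.44 on the αERKO array and 6.34 on the array labelled βERKO. The αERKO array and that labelled βERKO thus stood above all 5 wild-type arrays, and they differed by 0.11, less than the SD between probe pairs (0.56). The 4 wild-type arrays with no named DMBA lay within 4.10 to 4.65, and the span over all arrays (2.34) was exceeded by 1147 genes.

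Aldh1a2 (GE33537), the main retinoic acid producing enzyme of the early embryo and of stromal cells, was read as good on the αERKO array alone, at -0.26. On the other 6 arrays its spots were near background, between -1.81 (WT with DMBA) and -1.38 (WT 10 days).

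Aldh1a3 (GE42005), the third enzyme of the family and one found in epithelia, was good on all arrays and had a pattern of its own. Its level was 1.67 on the WT 10-day array, -0.62 on the WT 24-day array, 0.21 on the WT array with DMBA, 0.72 on the BALB/c array, 2.04 with vitamin D5, -0.37 on the αERKO array and 2.34 on the array labelled βERKO. The array labelled βERKO was the brightest and the WT 24-day and αERKO arrays the dimmest, a span of 7.80-fold. The αERKO array and that labelled βERKO therefore lay far apart for this gene, whereas for Aldh1a1 they lay together at the top.

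Crabp1 (GE119651), a cellular carrier of retinoic acid, had the second widest span of the genes read on all arrays, 18.5-fold, exceeded by 221 genes. Its level was 3.82 on the WT 10-day array, 1.53 on the WT 24-day array, 4.74 on the WT array with DMBA, 4.06 on the BALB/c array, 5.23 with vitamin D5, 4.19 on the αERKO array and 5.74 on the array labelled βERKO. The WT 24-day array without DMBA stood apart from all the others, which lay between 3.82 and 5.74. The αERKO array sat inside the wild-type range.

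Crabp2 (GE113053), the carrier that delivers retinoic acid to its receptors, was dimmest on the αERKO array. Its level was 4.93 on the WT 10-day array, 3.11 on the WT 24-day array, 3.41 on the WT array with DMBA, 5.10 on the BALB/c array, 5.39 with vitamin D5, 2.91 on the αERKO array and 4.51 on the array labelled βERKO. The arrays formed a bright set of 4 (both BALB/c arrays, WT at 10 days and the array labelled βERKO, 4.51 to 5.39) and a dim set of 3 (WT at 24 days with and without DMBA, and αERKO, 2.91 to 3.41). Within the dim set the WT arrays with and without DMBA differed by 0.30, about the SD between probe pairs (0.31).

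Rarb (GE1564869), the receptor whose promoter is printed above, was read as good on 4 arrays. These were the αERKO array at 1.04, the WT array with DMBA at -0.37, the array labelled βERKO at -0.41 and BALB/c with vitamin D5 at -0.85. On the remaining arrays its spots were near background, at -4.37 (WT 10 days), -2.83 (WT 24 days) and -2.25 (BALB/c). The αERKO array was the brightest, and the WT array with DMBA and the array labelled βERKO could not be told apart.

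Rarg (GE36488), the receptor abundant in skin and other epithelia, hardly varied. Its level was 0.33 on the WT 10-day array, 0.33 on the WT 24-day array, 0.32 on the WT array with DMBA, -0.30 on the BALB/c array, 0.06 with vitamin D5, -0.21 on the αERKO array and 0.18 on the array labelled βERKO. The 3 C57 arrays were level with each other and BALB/c was the lowest. The span of 0.63 was smaller than that of 7414 of the 9338 genes.

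The comparisons are given next, each between 1 array and 1 array. The αERKO array, the array labelled βERKO, the WT array with DMBA and the WT 24-day array each enter more than 1 comparison, so the comparisons are not independent of each other. A gene was counted as higher or lower where its ratio passed 2-fold and 1 or both of its spots were good.

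The first comparison asked what αERKO glands expressed against WT glands with DMBA. Of the members, 8 could be compared, 3 were over 2-fold higher and 0 lower, while 10.2% of the 12189 genes compared were over 2-fold higher and 15.2% lower. Rbp4 was 6.10-fold higher (log2 ratio 2.61), Rarb 2.65-fold higher (1.41) and Aldh1a2 at least 2.93-fold higher. Aldh1a1 was higher by 0.87 and stayed within 2-fold, as did Aldh1a3 (-0.59), Crabp1 (-0.55), Rarg (-0.53) and Crabp2 (-0.50). These 4 lower values were about the size of the SD between probe pairs in this comparison (0.59). With another background correction (normexp, with an offset of 50 added to every spot) Rarb at 0.70 and Aldh1a2 at 0.52 no longer passed 2-fold. The median of the members was 0.18 and that of all genes compared -0.17.

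In the comparison of the array labelled βERKO with WT glands given DMBA, other genes passed 2-fold. Of 7 members compared, 2 were higher and 0 lower, against 6.62% of 12077 genes higher and 7.29% lower. Aldh1a3 was 4.37-fold higher (2.13) and Crabp2 2.14-fold higher (1.10). Crabp1 lay at 1.00, just inside the 2-fold limit, and Aldh1a1 at 0.76. Rbp4 (0.30), Rarg (-0.15) and Rarb (-0.04) were within the SD between probe pairs (0.37). Crabp2 was within 2-fold under normexp (0.89) and under quantile normalisation (0.96). The members' median was 0.76 and that of all genes 0.14.

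Set directly against each other, the αERKO array and that labelled βERKO differed by over 2-fold in 6 of 8 members. Rbp4 was 4.94-fold (2.30), Rarb 2.73-fold (1.45) and Aldh1a2 at least 2.48-fold higher on the αERKO array. Aldh1a3 was 6.58-fold (-2.72), Crabp2 3.03-fold (-1.60) and Crabp1 2.93-fold (-1.55) lower there. Aldh1a1 (0.11) and Rarg (-0.39) were within the SD of 0.56. Under normexp Rarb (0.70) and Aldh1a2 (0.40) were within 2-fold. Thus 3 members were higher and 3 lower, where 11.8% of 12006 genes were higher and 20.2% lower, with a members' median of -0.14 and an all-gene median of -0.30.

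DMBA was examined in WT glands at 24 days of culture. Of 8 members compared, 4 were higher with DMBA and 0 lower, against 11.6% of 12150 genes higher and 7.79% lower. Crabp1 was 9.26-fold higher (3.21), a change that 42 of the 10806 genes good on both arrays exceeded. Rbp4 was 4.92-fold higher (2.30), Aldh1a1 2.43-fold higher (1.28) and Rarb at least 2.38-fold higher. Aldh1a3 (0.84) stayed within 2-fold. It exceeded the SD between probe pairs (0.31) and that of pairs at levels under 1 (0.61), and was 0.36 under normexp. Crabp2 (0.30) and Rarg (-0.01) lay within the SD of 0.31. Stra6 was at least 1.38-fold lower, its spot being near background with DMBA. Under normexp the Rarb ratio was 0.55, within 2-fold. The members' median was 1.06, the highest of the 7 comparisons, and that of all genes -0.15. EGF with progesterone is named for the pooled glands of the array with DMBA and not for the WT array without it. DMBA and any difference in pretreatment therefore cannot be told apart.

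Between 10 and 24 days of culture in WT glands, the binding proteins and the retinol carrier went opposite ways. At 24 days Rbp4 was 3.13-fold higher (1.65). Crabp1 was 4.89-fold (-2.29), Aldh1a3 4.88-fold (-2.29) and Crabp2 3.52-fold (-1.82) lower. Aldh1a1 (-0.11), Stra6 (-0.05) and Rarg (-0.00) were within the SD of 0.23, and 1 of 7 members was higher and 3 lower. The shares of all 11887 genes were 5.47% and 4.34%, with a members' median of -0.11 and an all-gene median of 0.16. The 24-day glands had passed from the full hormone mixture to insulin alone, so time and hormones cannot be told apart.

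With vitamin D5, BALB/c glands had 3 of 7 members higher and 0 lower, against 4.41% of 12177 genes higher and 4.39% lower. Rarb was at least 1.93-fold higher, and its measured ratio of 1.40 passed 2-fold. Aldh1a3 was 2.49-fold (1.32) and Crabp1 2.25-fold (1.17) higher. Rbp4 (0.71), Rarg (0.36) and Crabp2 (0.29) were higher by more than the SD of 0.23 and within 2-fold. The SD of pairs at levels under 1, as those of Rarg were, was 0.32. Aldh1a1 was lower at -0.55. Under normexp Rarb (0.34) and Aldh1a3 (0.95) were within 2-fold, and quantile normalisation put Crabp1 just inside it (0.998). The members' median was 0.71 against 0.16 for all genes.

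BALB/c and C57 glands at 24 days differed in 5 of 7 members. Crabp1 was 5.79-fold (2.53), Crabp2 3.97-fold (1.99) and Aldh1a3 2.53-fold (1.34) higher in BALB/c. Rbp4 was 3.20-fold lower (-1.68) and Stra6 at least 1.67-fold lower, with a measured ratio of -1.41. Rarg was lower at -0.63 and Aldh1a1 higher at 0.36, against an SD of 0.33. For pairs at levels under 1, as those of Rarg were, the SD was 0.41. Under normexp Aldh1a3 (0.65) and Stra6 (-0.34) were within 2-fold. The counts were 3 higher and 2 lower, with 6.22% and 12.2% of 12113 genes beside them, a members' median of 0.36 and an all-gene median of -0.31. Strain and any difference in DMBA, pretreatment or culture medium, which are not given for BALB/c, cannot be told apart.

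**Figure D2:**
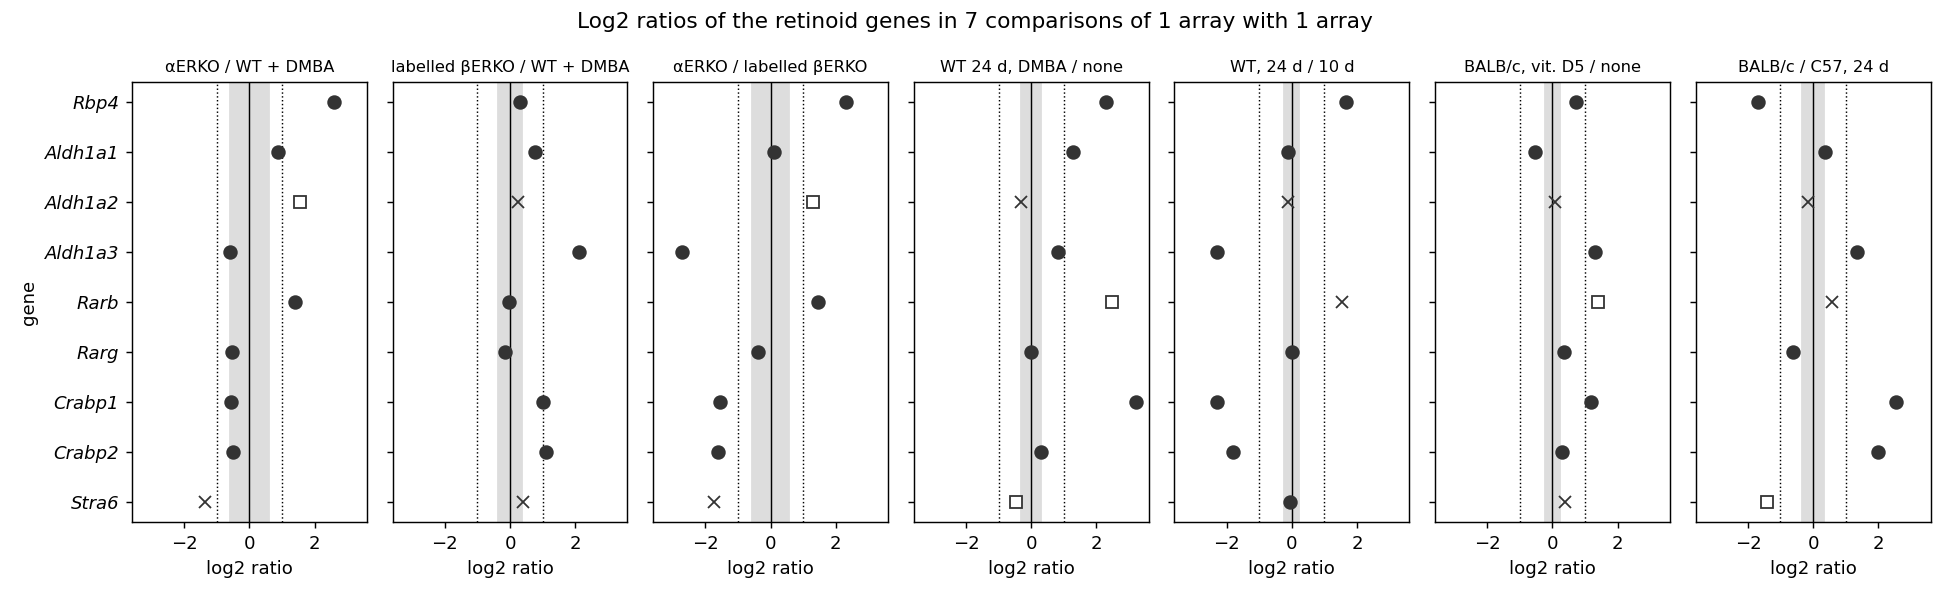
Log2 ratio (x axis) of each retinoid gene (y axis) in the 7 comparisons of 1 array with 1 array. Filled circles are spots good on both arrays, squares spots good on 1 array, and crosses spots near background on both, which were not compared. Dotted lines mark 2-fold and the grey band the SD between probes of the same transcript. Crabp1 reaches 3.21 with DMBA and Aldh1a3 lies at -2.72 for αERKO over the array labelled βERKO.

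Marker lists of other cell types moved beside these genes. With DMBA, 10 of 12 adipocyte, 9 of 10 fibroblast, 7 of 7 endothelial and 6 of 7 macrophage markers compared were over 2-fold higher. Lower were 6 of 11 luminal markers, with 1 higher, and 4 of 6 squamous markers. Basal markers were split, 3 of 8 higher and 2 lower. Between 10 and 24 days 10 of 12 adipocyte and 4 of 7 macrophage markers were higher, as Rbp4 was. Of the basal epithelial markers 5 of 8 were lower, as Crabp2 was, and 2 higher. Squamous markers were lower in 4 of 7. In BALB/c against C57 glands 10 of 12 adipocyte and 5 of 7 macrophage markers were lower, as Rbp4 was. Higher were 2 of 8 basal markers and 1 macrophage marker. On the αERKO array against WT with DMBA, 3 of 12 adipocyte, 5 of 10 fibroblast, 4 of 6 squamous, 6 of 8 lymphocyte and 11 of 11 skeletal muscle markers were higher. In the same comparison 5 of 8 basal, 5 of 11 luminal and 6 of 7 macrophage markers were lower, as were 1 adipocyte and 1 fibroblast marker. Endothelial markers were split, 2 of 7 higher and 3 lower. For the array labelled βERKO over WT with DMBA, 5 of 6 squamous markers and 6 of 8 muscle markers were higher, and 6 of 10 fibroblast, 6 of 7 endothelial, 4 of 7 macrophage and 4 of 12 adipocyte markers lower. For αERKO over the array labelled βERKO, 6 of 12 adipocyte, 9 of 10 fibroblast, 4 of 6 endothelial, 6 of 8 lymphocyte and 11 of 11 muscle markers were higher. Lower were 7 of 11 luminal, 5 of 8 basal and 3 of 6 squamous markers, with 1 basal marker higher. Macrophage markers were split, 3 of 7 higher and 1 lower. With vitamin D5, 5 of 8 squamous and 3 of 10 fibroblast markers were higher, and 1 squamous and 1 of 11 adipocyte markers lower. The part of these cell types in the retinoid values was not tested.

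Across arrays, the adipocyte sum was 471.3 (WT 10 days), 1260.7 (WT 24 days), 2392.1 (WT with DMBA), 448.5 (BALB/c), 334.4 (with vitamin D5), 3732.4 (αERKO) and 1885.2 (array labelled βERKO). It was highest on the αERKO array, as Rbp4 was. With vitamin D5 it was lower than on the BALB/c array while Rbp4 was higher. The fibroblast (563.4), endothelial (56.9), lymphocyte (77.9) and skeletal muscle (2488.3) sums were also highest on the αERKO array. The fibroblast sum was 31.1 on the BALB/c array and 53.4 with vitamin D5, higher as Rbp4 was. It was 24.4 in WT at 10 days and 24.8 at 24 days, while Rbp4 was 3.13-fold higher at 24 days. The basal epithelial sum was 751.4, 298.2, 333.2, 617.0, 863.1, 145.1 and 363.1 in the same order of arrays. Both it and Crabp2 were highest in BALB/c with vitamin D5 and lowest on the αERKO array.

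**Figure D3:**
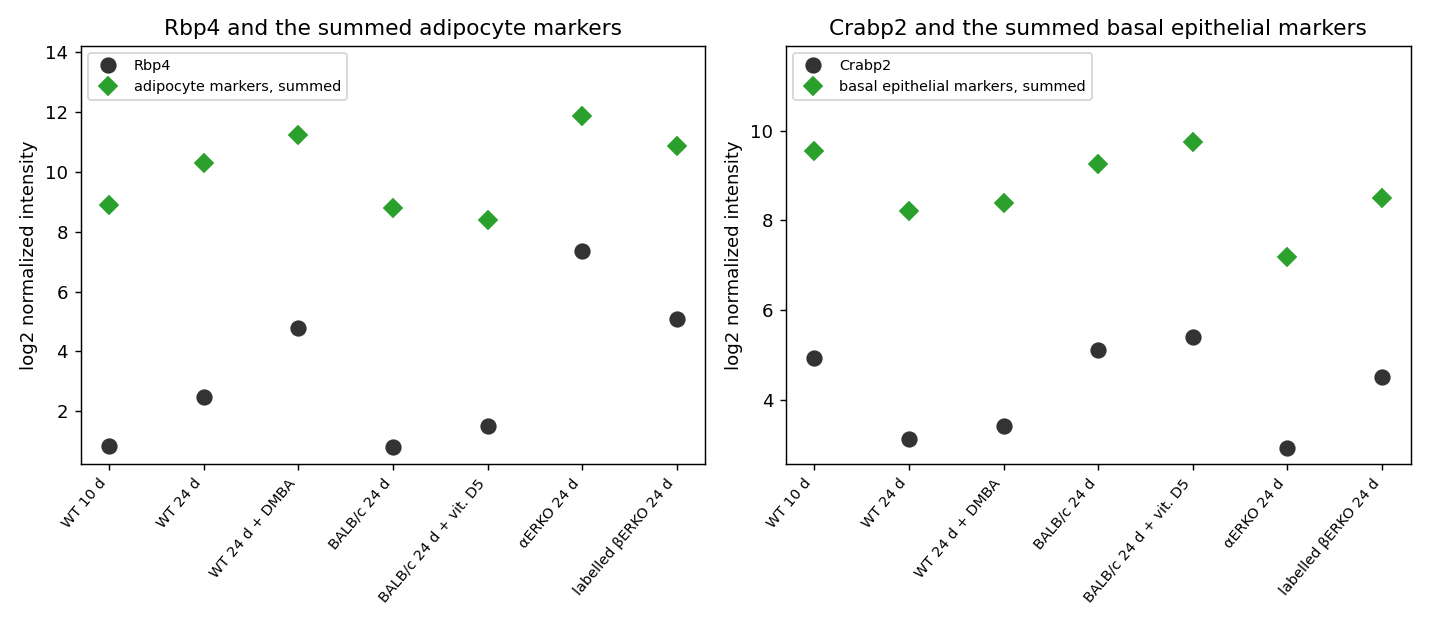
Log2 normalised intensity (y axis) of Rbp4 with the summed adipocyte markers (left) and of Crabp2 with the summed basal epithelial markers (right) on the 7 arrays (x axis, 1 array per group). Circles are the gene and diamonds the log2 of the marker sum. Rbp4 and the adipocyte sum are both highest on the αERKO array, and Crabp2 and the basal sum both lowest there. Sizes differ on the αERKO array: against WT with DMBA Rbp4 was 6.10-fold higher, and the adipocyte sum went from 2392.1 to 3732.4. The pairs also part with vitamin D5 for Rbp4 and on the array labelled βERKO for Crabp2. On that array Rbp4 was at 5.07 against 4.76 on WT with DMBA, and the adipocyte sum at 1885.2 against 2392.1.

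Other genes of retinoid handling were read from lists of 67 genes, 60 of which were on the array. Of 53 compared between the αERKO array and WT with DMBA, 7 were higher and 8 lower, where 10.2% and 15.2% of all genes were. For the array labelled βERKO 3 of 54 were higher and 7 lower, beside 6.62% and 7.29% of all genes. The lower calls of both comparisons came mostly from spots good on 1 array: with spots good on both, 6 were higher and 2 lower for αERKO and 3 higher and 2 lower for the array labelled βERKO, and under normexp 4 and 4, and 3 and 1. For αERKO over the array labelled βERKO they were 8 higher and 9 lower of 51 (11.8% and 20.2% of all genes). DMBA gave 9 higher and 7 lower of 55 (11.6% and 7.79%), culture time 5 higher and 1 lower of 53 (5.47% and 4.34%), vitamin D5 4 and 4 of 56 (4.41% and 4.39%), and strain 4 and 7 of 57 (6.22% and 12.2%). The medians of these lists lay between -0.26 and 0.17.

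Among transport and storage genes, Ttr, the plasma partner of RBP4, did not follow Rbp4 on the αERKO array. Its level was -0.15 (WT 10 days), 0.66 (WT 24 days), 2.72 (WT with DMBA), -0.54 (BALB/c), -0.42 (with vitamin D5), -0.74 (αERKO) and 1.86 (array labelled βERKO). Against WT with DMBA the αERKO array was 11.03-fold lower (-3.46), and DMBA over none in WT gave a 4.16-fold higher level (2.06). Rbp7, a retinol binding protein of fat and endothelium, was brightest on the WT array with DMBA at 7.37. The αERKO array (5.90, ratio -1.47) and the array labelled βERKO (5.02, ratio -2.34) were both dimmer than that, as was the WT 24-day array without DMBA (5.00, ratio of DMBA over none 2.37). Dgat1, which can esterify retinol as well as make triglyceride, was 2.54-fold higher for αERKO over the array labelled βERKO. Of the transport list, 1 of 9 was higher and 4 lower on the αERKO array against WT with DMBA, beside 10.2% and 15.2% of all genes. Of those 4, Ttr and Rbp7 had good spots on both arrays. Lrat (at least 1.21-fold lower) and Stra6l (at least 2.35-fold lower) were near background on the αERKO array.

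The enzymes of the step from retinol to retinal included the largest difference of the lists among spots good on both arrays. Adh1, a cytosolic alcohol dehydrogenase that oxidises retinol, was read at -0.27 (WT 10 days), 0.47 (WT 24 days), 3.22 (WT with DMBA), 0.54 (BALB/c), -0.45 (with vitamin D5), 5.87 (αERKO) and 2.81 (array labelled βERKO). The αERKO array was the brightest for Adh1, as for Rbp4, with log2 ratios of 2.65 over WT with DMBA and 3.06 over the array labelled βERKO. Adh7, the epithelial enzyme of the same family, ran the other way, at 6.23, 4.61, 1.35, 6.28, 6.43, 0.82 and 4.41 in the same order. It was 9.57-fold lower with DMBA (-3.26), 8.34-fold higher for the array labelled βERKO over WT with DMBA (3.06), and 12.1-fold lower for αERKO over the array labelled βERKO (-3.59). Rdh10, the membrane retinol dehydrogenase needed for retinoic acid in the embryo, was 3.36-fold lower with DMBA (-1.75) and 3.13-fold higher for the array labelled βERKO over WT with DMBA (1.65). Dhrs7 had a log2 ratio of 1.48 for αERKO over WT with DMBA, and Rdh16 (-1.61) and Aldh8a1 (-1.36) were lower with DMBA. Rdh11 was 2.67-fold lower for αERKO over WT with DMBA, its αERKO spot carrying a flag for irregular shape. Of this enzyme list, 2 of 20 were higher and 1 lower on the αERKO array against WT with DMBA (10.2% and 15.2% of all genes), and 1 of 22 higher and 4 lower with DMBA (11.6% and 7.79%).

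Breakdown of retinoic acid was represented by Cyp26a1 alone of 3 enzymes listed. It was good on the BALB/c array (0.48), on the BALB/c array with vitamin D5 (-1.04) and on the WT array with DMBA (-1.30). It was thus 2.88-fold lower with vitamin D5 (-1.52) and at least 4.30-fold higher in BALB/c than in C57 glands.

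Among the other receptors, Rara and Rxra were about as level as Rarg. Rara, the most widely expressed retinoic acid receptor, stayed between 3.03 and 3.25, and Rxra, a partner of the retinoic acid receptors, between 1.57 and 2.12. Rxrb ran from -0.05 to 0.79. Rxrg, the third retinoid X receptor, ran from 1.92 on the WT 10-day array to 3.54 on the αERKO array. Rorb was good on the BALB/c array alone, at least 2.90-fold higher than with vitamin D5 and at least 2.42-fold higher than in C57 glands.

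Genes that retinoic acid is known to induce gave 4 of 17 higher and 1 lower on the αERKO array against WT with DMBA (10.2% and 15.2% of all genes). The counts were 1 higher and 1 lower of 16 for the array labelled βERKO (6.62% and 7.29%), and 5 higher and 2 lower of 16 with DMBA (11.6% and 7.79%). Hoxa5, a homeobox gene, was read at 0.03, 1.21, 2.97, -0.06, -0.34, 4.18 and 2.45 in the same order. It was brightest on the αERKO array, 2.32-fold over WT with DMBA (1.21), and 3.39-fold higher with DMBA than without (1.76). Rarres2, the adipokine chemerin, was read at 2.45, 4.04, 6.04, 2.51, 3.61, 6.31 and 6.42. It was 4.02-fold higher with DMBA (2.01), 2.99-fold higher at 24 than at 10 days (1.58) and 2.15-fold higher with vitamin D5 (1.10). Ucp1, the uncoupling protein of brown fat, had a log2 ratio of 3.35 for αERKO over WT with DMBA. Its spot was near background in WT at 10 days and in BALB/c, and its vitamin D5 ratio was at least 3.15-fold. Bhlhe40, a repressor of the clock system, was lowest on the WT array with DMBA (1.33) and between 2.68 and 2.97 on the other 6. Nr2f1, an orphan receptor, was at least 4.65-fold higher with DMBA, and Nr2f2, its relative, 2.48-fold higher for αERKO over the array labelled βERKO. For αERKO over WT with DMBA, Rai14 was at least 4.26-fold lower and Hoxb1 at least 2.20-fold higher. For the array labelled βERKO, Hoxa4 lay at least 2.27-fold under WT with DMBA.

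**Figure D4:**
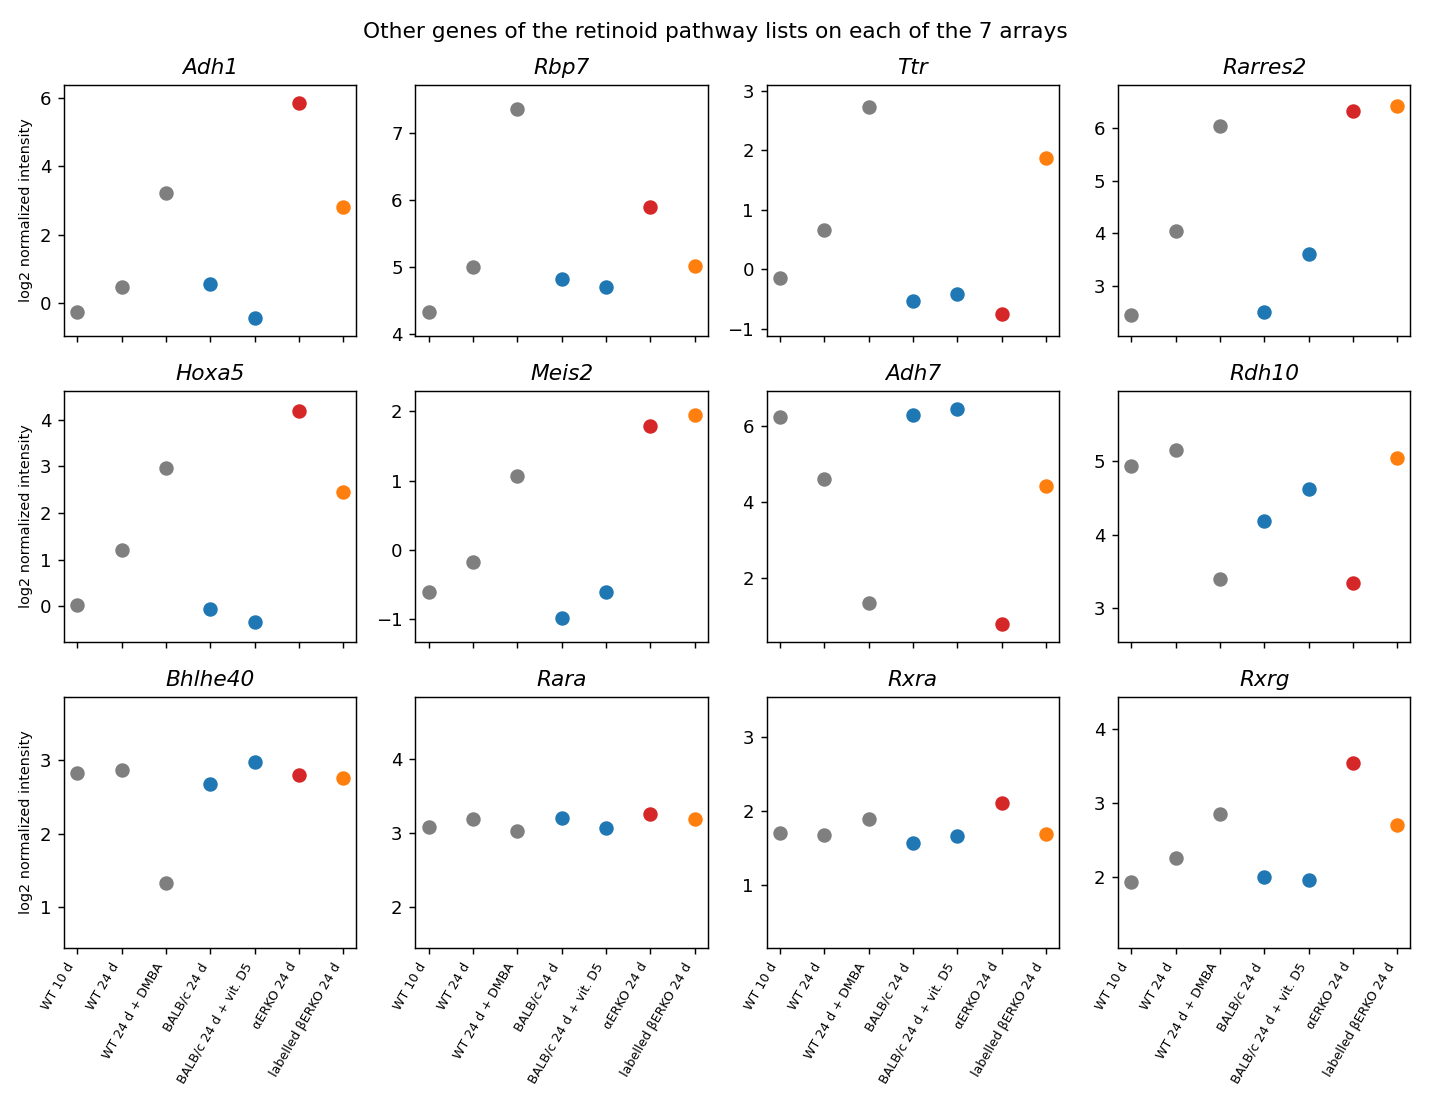
Log2 normalised intensity (y axis, own scale per panel) of 12 other genes of retinoid handling on the 7 arrays (x axis, 1 array per group). Filled points are spots flagged good, as all of these were. Adh1 is brightest on the αERKO array at 5.87, where Adh7 is dimmest at 0.82, and Rara stays between 3.03 and 3.25.

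The genes whose pattern over the 7 arrays was most like that of Rbp4, Aldh1a1, Aldh1a3, Crabp2 and Rarg were found by the root mean square difference of log2 values after centring each probe, among the 9338 genes good on all arrays. Nearest to Rbp4 were Ntrk2 (0.38), a neurotrophin receptor, and Dpt (0.41), the matrix protein dermatopontin and one of the fibroblast markers. Aldh1a1 was followed by Mmd and Pltp (0.25 each), the latter a phospholipid transfer protein of plasma. Nearest to Aldh1a3 were Atp6v0a4 (0.48) and Cyb5rl (0.51), farther on this measure than the neighbours of the other genes named here. Their Pearson correlations with Aldh1a3 over the 7 arrays were 0.91 and 0.97. Nearest to Crabp2 were Gsap (0.21) and Ereg (0.22), the EGF family ligand epiregulin. Rarg, which itself varied little, was closest to Cdc42bpb (0.06) and Sumf1 (0.07). These are descriptions over 7 arrays that share normalisation and composition of the glands.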

How the data were processed

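RNA of cultured mammary glands was hybridised to 1-colour CodeLink Mouse Whole Genome arrays, 1 array for each of 7 groups taken from the sample titles. Per the file headers and the study's methods, the authors scanned the arrays and deposited, for each spot, an intensity from which the local background median had been subtracted, with a quality flag. Normalisation to the array median and a 2-fold threshold follow the study's methods. The authors' series-wide table of normalised intensities was not used, since its rows carry no probe name, and the normalised column of the scanner files served as an alternative. Arrays give no read depth, and with 1 array per group no test between groups was possible.

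The deposited intensity was divided by the median of the 34967 gene probes of its array and taken to log2. Probes were named through RefSeq (GRCm38.p6): of 15553 with a RefSeq accession 14763 were named, for 13971 genes, and a gene with several probes was read from the brightest. Members and gene lists were chosen with earlier results of these data known. Named pathway genes were those over 2-fold, up to 5 each way by size, or with a bound over 2-fold, up to 3 each way, plus the 2 genes most like each member; some of these genes are not reported here. Rara, Rxra, Rxrb, Rxrg and Meis2 were added to the text or the plot after their values were seen, and the keratins belong to the marker lists. Alternatives were the 75th percentile, quantile normalisation, that deposited normalised column, normexp (limma 3.58.1, R 4.3.3), a floor, other filters on dim probes and thresholds of 1.5-fold and 3-fold. Scripts were run in Python 3.11.15 with numpy 2.4.6, pandas 2.3.3 and matplotlib 3.10.9 and tested on simulated data.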

Additional observations from a re-analysis of the deposited data

How the results depend on the processing

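Values below follow the order αERKO over WT with DMBA, array labelled βERKO over WT with DMBA, αERKO over the array labelled βERKO, DMBA over none, 24 over 10 days, vitamin D5 over none and BALB/c over C57, in which 3, 2, 6, 4, 4, 3 and 5 members and 15, 10, 17, 16, 6, 8 and 11 other pathway genes passed 2-fold. No paired analysis was possible because each group had 1 array and the labels carry no replicate numbers. Reading each other probe of a gene gave no value, since each member had 1 probe. Of 63 member counts under alternatives, 51 stayed within 1.5 times the reported one. With normexp the members over 2-fold were 1, 1, 1 and 3 for αERKO, the array labelled βERKO, vitamin D5 and strain, and the pathway genes 8, 4, 10, 10, 2, 1 and 2. Quantile normalisation left 1 member for the array labelled βERKO. At 3-fold the members were 1, 1, 3, 0 and 3 for αERKO over WT with DMBA, the array labelled βERKO over WT with DMBA, αERKO over the array labelled βERKO, vitamin D5 and strain, and the pathway genes 7, 4, 10, 10, 3, 4 and 5. At 1.5-fold the members were 5 and 4 for αERKO and the array labelled βERKO over WT with DMBA, and the pathway genes 24, 19, 30, 26, 15, 13 and 27. Requiring good spots on both arrays left 8, 5, 9, 3, 2 and 5 pathway genes in all but the DMBA comparison. A floor at the lowest good value gave 6 for the array labelled βERKO and 5 for vitamin D5, and no filter gave 11 for culture time. Of 208 log2 ratios of members, 190 moved by less than the SD between probe pairs, 17 moved further with normexp and 1 with quantile normalisation (Aldh1a1, BALB/c over C57, 0.72). With normexp Rarb was at 0.70 for αERKO over WT with DMBA, 0.55 for DMBA and 0.34 for vitamin D5, and Aldh1a2 at 0.52 for αERKO over WT with DMBA. Signs changed only at ratios near 0 (Rarb for the array labelled βERKO, and Rarg for DMBA and for culture time). The 75th percentile moved the median of all genes by 0.22 for BALB/c over C57, 0.18 for αERKO over the array labelled βERKO, 0.13 for αERKO over WT with DMBA and -0.13 for vitamin D5. Arrays without replicates limit every value, and for Stra6, Aldh1a2 and Rarb signal close to background limits it further.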
